A study of Mus musculus with 12 samples.

Results

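Within the 6 control libraries of green fluorescent astrocytes sorted from mouse spinal cord, transcripts of astrocyte genes differed widely in level, and the libraries are described here as 3 astrocyte-rich and 3 astrocyte-poor sorts. The 2 sets were chosen by the data: the 6 controls, out of 12 libraries in the series, were ranked by the mean log2(normalized count + 1) of Aqp4, Slc1a2, Gja1, Aldoc and Acsbg1, and the highest 3 were set against the lowest 3. The rich set held female control replicates 1 and 3 and male control replicate 3. The poor set held male control replicates 1 and 2 and female control replicate 2. The other 6 libraries were from mice labelled cKO (conditional knockout) for Nkx6.1, a homeobox gene, and took no part in the ranking. All 12 libraries had the genotype label Aldh1l1-GFP, a reporter that marks astrocytes by fluorescence, and each combination of sex and genotype had 3 labelled libraries. Strain, age and the driver of the deletion are not given in the labels, and neither is whether replicates came from separate animals, so the p-values given for the cKO libraries measure only the spread between samples, which may be technical.

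Astrocytes take up glutamate and GABA released at synapses, buffer potassium, move water through channels at their endfeet on blood vessels, and share ions and metabolites through gap junctions. Aqp4 is the water channel of those endfeet, Slc1a2 the main glutamate transporter, Gja1 the gap junction connexin, Aldoc a glycolytic aldolase and Acsbg1 an acyl-CoA synthetase. A sort by fluorescence can carry RNA of other cells along with that of its target, and in a bulk library fewer cells of a type and less RNA per cell cannot be told apart. The words rich and poor below refer to the ranking only.

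The 5-gene score, which is the mean log2(value + 1) of the ranking genes, was 12.42 in female control replicate 1, 12.27 in female control replicate 3 and 11.51 in male control replicate 3. It was 10.58 in male control replicate 1, 10.24 in female control replicate 2 and 10.08 in male control replicate 2. The cut between the sets thus fell between male control replicate 3 and male control replicate 1, which lay 0.93 apart. The scores spanned 0.91 within the rich set and 0.49 within the poor set. Aqp4 had 7699, 6503 and 3721 normalized counts in the rich libraries, in the order given above, and 2007, 1334 and 1412 in the poor ones. Slc1a2 had 39675, 41923 and 24541 against 11483, 7373 and 8273. These values made the ranking and are given as a description with no test. The same 3 libraries ranked highest when any 1 of the 5 genes was left out.

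**Figure D1:**
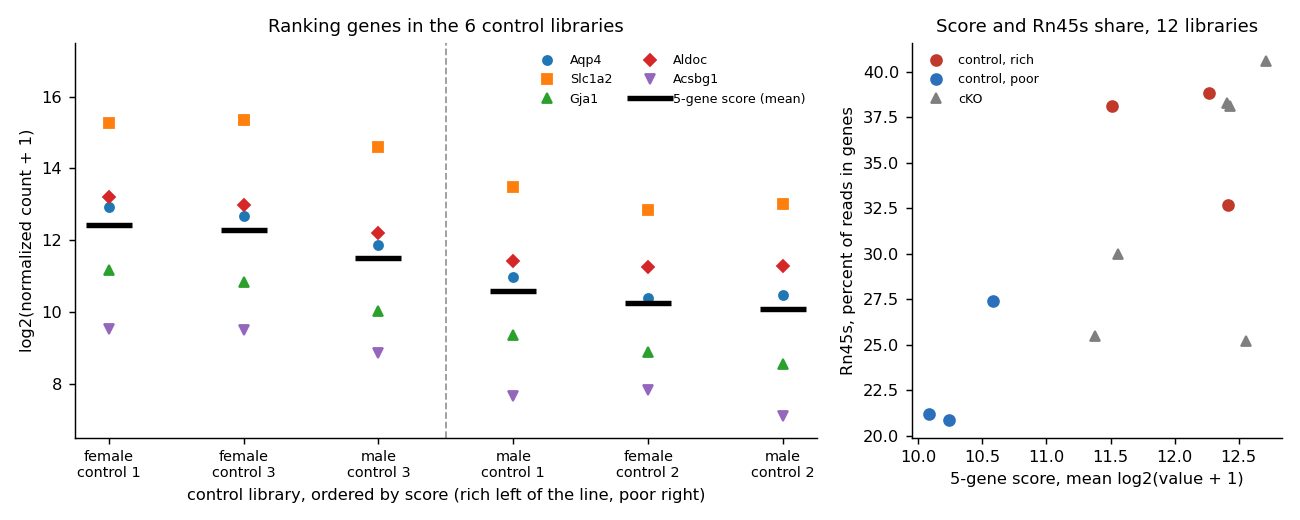
Left, log2(normalized count + 1) of the 5 ranking genes in each control library, with bars for their mean, ordered by that mean; the dashed line divides the 3 rich from the 3 poor libraries. Right, the share of reads taken by Rn45s (percent) against the 5-gene score for all 12 libraries; the 3 rich controls lie between 32.7% and 38.8% and the 3 poor controls between 20.9% and 27.4%.

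The sets differed in more than the ranking genes. Reads in genes numbered 2246412 to 7124347 in the rich libraries and 6315513 to 9054934 in the poor ones, and genes with at least 1 read numbered 14120 to 15070 and 14778 to 15255. The ribosomal RNA precursor Rn45s took 32.7% to 38.8% of reads in the rich set and 20.9% to 27.4% in the poor set, so its share moved with the ranking without overlap. Sex was not balanced, with 1 male and 2 female libraries in the rich set and 2 male and 1 female in the poor set. The first principal component of the controls held 28% of the variance, with scores of 35.6, 96.2 and -13.8 in the rich libraries and -34.9, -54.2 and -29.0 in the poor ones. The second held 21.5%, and on it the sets overlapped, at -86.3, 44.0 and 39.4 against 9.8, 19.0 and -25.8. The homeobox gene Nkx6-1 had 19, 12 and 2 reads in the rich libraries and 3, 7 and 9 in the poor ones. It had 0 reads in replicates 1 and 2 of both sexes labelled cKO, but 18 in the library labelled male cKO replicate 3 and 19 in that labelled female cKO replicate 3. At 25.6 and 28.3 normalized counts these stood above every control, the highest of which had 15.2, so for both libraries the read counts go against the cKO label. Both enter the slopes given further on, which are also given without them. Among the cKO libraries, the one labelled male replicate 2 carried Xist and no Y-linked reads, against its sex label, and differed from female cKO replicate 2 by no more than sampling noise; the pair was averaged and counted as 1 sample.

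Of 13264 genes described, the ranking genes left out, 649 followed the astrocyte score, which is 4.89% of them. A gene was said to follow when all 3 rich libraries lay above all 3 poor ones and their mean log2(value + 1) differed by at least 1, a doubling. The reverse held for 403 genes, or 3.04%, which are called opposing. With no limit on size, 1135 genes (8.56%) lay higher in all 3 rich libraries and 1023 (7.71%) lower. The median difference over all genes was -0.03. The libraries were ranked on values of these same samples, so nothing is read from these shares and no p-value is given. Of the following genes, 124 stayed under a value of 10 in every poor library. Of the opposing genes, 85 did so in every rich library. Among the controls, these genes could pass the filter only through the set in which they were high, though cKO libraries also counted towards it. Scaling each library to its total with Rn45s left out, in place of the deposited scaling, gave 512 following and 547 opposing genes, and moved the median of all genes to -0.12. Without male control replicate 3, the rich library nearest the cut, following genes made up 48.2% of those called in either direction, against 61.7% with it.

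A further 324 genes stayed level, meaning a range of at most 0.5 on the log2 scale over the 6 controls at a mean of at least 100 normalized counts. They were 6.16% of the 5260 genes with such a mean. Msn, which encodes the membrane to actin linker moesin, had the narrowest range of those named, with 690, 710 and 664 normalized counts in the rich libraries and 669, 680 and 685 in the poor ones. Ctnnb1, the gene of beta-catenin, had 926, 929 and 1020 against 1005, 905 and 918. The chaperonin subunit gene Cct7, the RNA-binding protein gene Celf1 and the nuclear import receptor gene Ipo11 were also among the 10 most level genes. Spag9, a scaffold gene of JNK signalling, was the most abundant of these 10, at 2550, 2781 and 2675 against 2412, 2784 and 2566. Libraries of both sets were intermixed for 9 of the 10, and Tprgl alone had all rich libraries above all poor ones, by 0.10.

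Among the following genes with a mean of at least 100 normalized counts, the largest difference was that of Mlc1, a membrane protein gene of astrocyte endfeet (chromosome 15, 88955884 to 88979007, minus strand, GRCm38). Mlc1 had 590, 446 and 330 normalized counts in the rich libraries and 73.9, 56.8 and 111 in the poor ones. The lowest rich library was thus well above the highest poor one, and the means, 455 ± 130 and 80.5 ± 27.7 (SD, n = 3 each), stood in a ratio of 5.65. Slc6a11, a GABA transporter of astrocytes (chromosome 6, 114131241 to 114249952, plus strand), had 4349, 4790 and 2214 against 1281, 612 and 754, a difference of 2.09 ± 0.47 on the log2(value + 1) scale (SE, 3 libraries against 3). Gfap, the intermediate filament gene of astrocytes (chromosome 11, 102887336 to 102900912, minus strand), had 1695, 1336 and 551 against 181, 353 and 249. In each of these 3 genes male control replicate 3 was the lowest of the rich libraries, as it was for the score. Elovl2, an elongase of long polyunsaturated fatty acids, differed by 2.20, the angiotensinogen gene Agt by 2.04, the urea transporter gene Slc14a1 by 1.95 and the metallothionein gene Mt2 by 2.26. Mt2 had the tightest sets of these, at 448, 543 and 501 against 91.0, 95.2 and 124.

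The same 15 leading genes held several that are better known from neurons. Kif5a, a kinesin heavy chain of axonal transport (chromosome 10, 127225696 to 127263348, minus strand), had 2978, 7561 and 5812 normalized counts in the rich libraries and 1518, 1023 and 753 in the poor ones. Its relative Kif5c had 1265, 2533 and 2735 against 556, 474 and 462. For both kinesins female control replicate 1, the library with the highest astrocyte score, was the lowest of the rich set. Kif5b, a further kinesin heavy chain gene outside the 15, also followed, by 1.81, at a control mean of 5896. The complexin gene Cplx1 and the rabphilin gene Rph3a, both of synaptic vesicle release, differed by 2.20 and 1.97, and Gabra2, a subunit of the GABA-A receptor, by 2.16. Mir6236, Efcab2 and Fam107a completed the 15, at 2.41, 2.30 and 1.98.

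**Figure D2:**
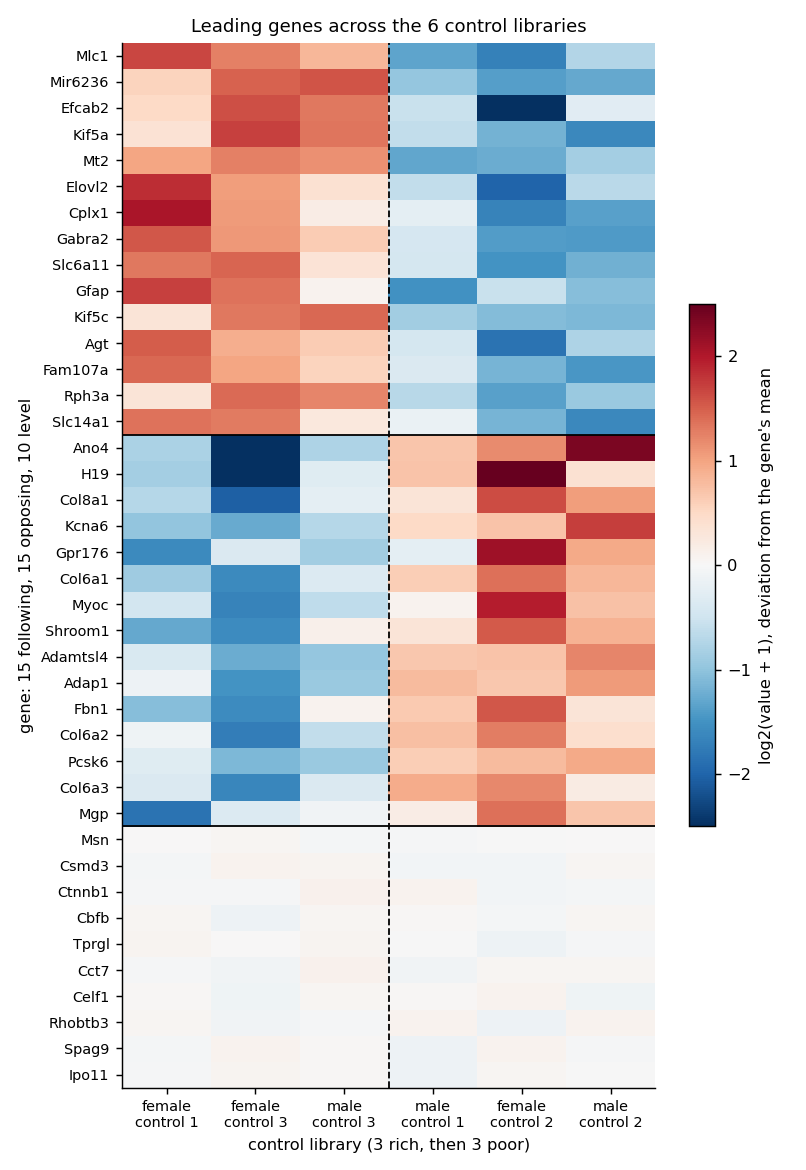
Deviation of log2(normalized count + 1) from each gene's mean over the 6 controls, for the 15 following, 15 opposing and 10 level genes taken by rank; columns are libraries, with the 3 rich ones left of the dashed line. Msn ranges from 664 to 710 normalized counts, while Mlc1 ranges from 56.8 to 590 and Ano4 from 10.2 to 363.

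The opposing genes named here were led by Ano4, a member of the anoctamin family (chromosome 10, 88948994 to 89344762, minus strand), with 40.0, 10.2 and 40.7 normalized counts in the rich libraries and 114, 159 and 363 in the poor ones. Its log2 difference was -2.82 ± 0.80. H19, an imprinted non-coding RNA, had 45.5, 12.7 and 66.4 against 136, 533 and 108, a difference of -2.51 in which female control replicate 2 stood highest. Col6a1 (chromosome 10, 76708792 to 76726168, minus strand), Col6a2 and Col6a3, which encode the chains of collagen VI, differed by -1.88, -1.64 and -1.56. Col6a1 had 43.7, 26.7 and 64.3 against 126, 215 and 146. Col8a1, a chain of collagen VIII, had 62.1, 24.1 and 85.7 against 128, 321 and 212. The fibrillin gene Fbn1, the matrix Gla protein gene Mgp, the ADAMTS-like gene Adamtsl4 and the myocilin gene Myoc differed by -1.69, -1.51, -1.73 and -1.85. The potassium channel gene Kcna6 had 158, 130 and 191 against 443, 516 and 1039, a difference of -1.97. Gpr176, Shroom1, Adap1 and the convertase gene Pcsk6 completed the 15, at -1.88, -1.81, -1.70 and -1.57.

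To show sequence near an annotated start of the leading genes, 1 window was taken for a following, an opposing and a level gene (RefSeq, GRCm38.p6, 250 bases before the start and 50 after it, written 5′ to 3′ on the strand of the gene). Capitals mark any of 7 motifs searched on both strands: TTGGCA (NFI), ACAATGG (SOX), CAGCTG (E-box), GTTGCCA (RFX), TGACGTCA (CRE), CCAAT and TATAAA. The starts in RefSeq and in GENCODE, from which the gene positions above come, lie 454 bases apart for Mlc1, whose window is wholly inside the GENCODE gene, 124 for Col6a1 and 3 for Msn. Of the 3, the Mlc1 window held 1 motif, CCAAT on the opposite strand, and the other two held none of these letters.
Mlc1, chr15:88978504-88978803, minus strand: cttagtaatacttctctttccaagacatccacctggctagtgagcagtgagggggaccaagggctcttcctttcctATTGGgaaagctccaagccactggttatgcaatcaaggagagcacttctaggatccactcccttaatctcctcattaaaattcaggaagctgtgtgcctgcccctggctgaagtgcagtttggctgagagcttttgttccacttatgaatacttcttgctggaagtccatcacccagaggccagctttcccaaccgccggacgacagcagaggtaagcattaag
Col6a1, chr10:76725995-76726294, minus strand: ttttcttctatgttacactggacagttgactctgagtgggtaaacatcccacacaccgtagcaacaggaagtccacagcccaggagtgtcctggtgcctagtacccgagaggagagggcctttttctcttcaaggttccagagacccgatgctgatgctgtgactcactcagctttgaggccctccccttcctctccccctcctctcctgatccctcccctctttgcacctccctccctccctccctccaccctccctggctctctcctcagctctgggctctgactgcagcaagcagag
Msn, chrX:96095795-96096094, plus strand: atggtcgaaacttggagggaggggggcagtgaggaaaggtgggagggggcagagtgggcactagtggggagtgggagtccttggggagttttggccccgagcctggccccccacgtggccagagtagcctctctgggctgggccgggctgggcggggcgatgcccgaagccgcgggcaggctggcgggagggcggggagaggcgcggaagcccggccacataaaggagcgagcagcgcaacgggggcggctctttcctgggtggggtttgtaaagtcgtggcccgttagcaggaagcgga

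A promoter was found for 10072 of the 13264 genes, or 75.9%, including 477 following, 317 opposing and 245 level genes. The GC content averaged 59.7% ± 9.6 (SD) in promoters of following genes, 61.7% ± 8.64 in opposing, 64.4% ± 9.96 in level and 61.0% ± 9.45 in all. CAGCTG stood in 20.8% of following, 17.7% of opposing and 11.0% of level promoters, beside 15.2% of all. TTGGCA stood in 12.6%, 12.3% and 6.12%, beside 11.4% of all, and ACAATGG in 0.839%, 1.58% and 2.04%, beside 1.88%. GTTGCCA was in 2.52%, 5.68% and 3.27%, beside 4.04%. TGACGTCA was in 3.35%, 3.79% and 5.71%, beside 3.26%, CCAAT in 37.1%, 34.1% and 39.6%, beside 38.6%, and TATAAA in 7.97%, 6.62% and 5.31%, beside 6.94%. These shares are descriptions of letters in a window, with no test.

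Other genes of astrocyte identity were higher in the rich libraries, as were those of GABA and glycine handling. The astrocyte list, with the ranking genes left out, had 31 genes described, of which 28 were higher in the rich mean, 18 followed and 0 opposed. Its median log2 difference was 1.22 beside -0.03 for all genes. The list mean was 10.37, 10.21 and 9.69 in the rich libraries and 9.24, 8.85 and 8.79 in the poor ones, with no overlap. Gjb6, which encodes a further gap junction connexin of astrocytes, had 998, 964 and 589 normalized counts against 345, 213 and 148. Atp1b2, a beta subunit of the sodium pump, differed by 1.73, and the secreted synapse-promoting protein gene Sparcl1 by 1.52. The apolipoprotein genes Apoe and Clu differed by 1.46 and 1.33. Aldh1l1, the gene whose reporter was sorted, was less uniform: it had 235, 268 and 156 normalized counts in the rich set and 157, 139 and 32.1 in the poor set, and so overlapped. The members were picked as known astrocyte genes, and the ranking used genes of the same kind in the same libraries.

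Lists of single astrocyte functions were less uniform. Beside the counts given list by list here and below, 4.89% of all genes followed and 3.04% opposed. Nothing is read from a list whose counts are near those shares. GABA and glycine handling had 7 following genes of 18, with a median of 0.91. Gabrg1 and Gabra4, subunits of the GABA-A receptor, differed by 1.58 and 2.11. Water, potassium and ion transport had 6 of 21 following and a median of 0.36, with the bicarbonate cotransporter Slc4a4 at 7642, 7240 and 4653 against 2328, 1914 and 1556. Glutamate uptake and the glutamine cycle, without Slc1a2, had 3 of 14 following and a median of 0.08, or 0.34 without male control replicate 2. Its members moved apart: the mitochondrial glutamate carrier gene Slc25a18 differed by 1.90 and glutamate dehydrogenase Glud1 by 1.27, while the metabotropic receptor gene Grm3 was lower in all 3 rich libraries, by -0.88. Lipid transport had 5 of 19 following and a median of 0.37 (0.01 without female control replicate 3), glycolysis and glycogen 2 of 25 and 0.38, with muscle-type glycogen phosphorylase Pygm at 1.72 and phosphofructokinase Pfkm at 1.28. Cholesterol synthesis had 0 of 22 in either direction, 3 level genes and a median of -0.03.

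Signalling and transcription factor genes were mixed. In the hedgehog list the transducer Smo and the receptor Ptch1 followed, with Smo at 1.73, and the ligand-binding inhibitor Hhip and the coreceptor gene Gas1 opposed, with Hhip at -1.23. Ptch1 had 1287, 1047 and 883 normalized counts against 436, 464 and 487, and Hhip had 294, 229 and 229 against 519, 523 and 744. The list median of 11 genes was 0.07, or 0.61 without female control replicate 2. Of 18 Notch genes, the glycosyltransferase Lfng followed (1.23) and Numbl opposed, with a median of 0.51. These Notch counts are near the shares over all genes, 4.89% and 3.04%. Of 18 BMP genes, the receptor Bmpr1b (1.09) and the inhibitor of differentiation Id4 (1.07) followed, with a median of 0.29. Of 28 astrocyte transcription factors, Rorb, Nkx6-1, Dbx2 and Id4 followed and Foxb1 opposed, with a median of 0.31; Nkx6-1 rested on the few reads given above. Rorb, an orphan nuclear receptor gene, had 807, 1275 and 652 against 246, 327 and 213. Of 22 positional and guidance genes Sema3a and Robo2 followed, and of 22 synaptogenic and secreted factors Gpc5, Sparcl1 and Sparc did. The guidance receptor Robo2 was even within the sets, at 149, 155 and 154 against 45.2, 38.4 and 30.0. Reactive astrocyte genes had a median of -0.06, with Gfap and the complement gene C3 following among 22; their mean difference was 0.07, of the other sign.

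**Figure D3:**
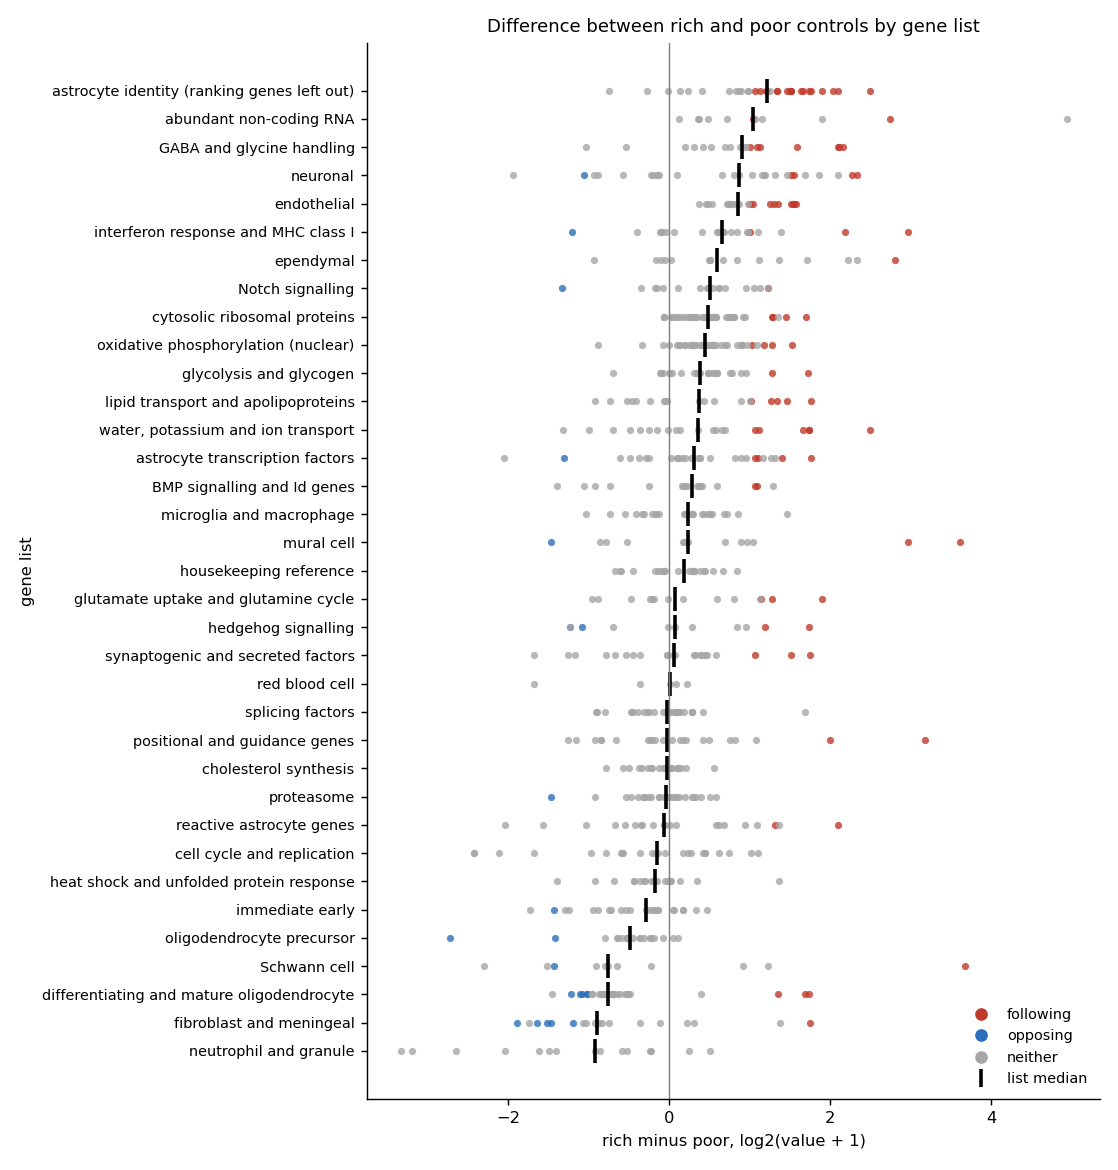
Difference between the 3 rich and the 3 poor controls on the log2(value + 1) scale (horizontal axis) for each member of the 35 lists with at least 5 genes described (vertical axis, ordered by median). Points are genes, coloured by class, and bars are list medians, which run from -0.92 for neutrophil genes to 1.22 for astrocyte identity.

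Markers of other cells went both ways. Of 32 differentiating and mature oligodendrocyte genes, 28 had a lower mean in the rich libraries. The median was -0.76, yet 3 followed and 5 opposed. Mal, a proteolipid of myelin membranes, had 4875, 3393 and 3279 normalized counts against 5665, 6351 and 9174, without overlap. Fa2h, Gal3st1, Myrf, Hapln2 and Tspan2 opposed. Mbp, myelin basic protein, went the other way at 92703, 258431 and 161650 against 44774, 53171 and 43566, and Bcas1 and Plekhb1 followed with it, by 1.69 and 1.35. With Mbp among its members, the summed list was 224098 to 382046 in the rich libraries and 172677 to 245428 in the poor ones, with overlap, and so did not share the direction of its median. Of 20 oligodendrocyte precursor genes, 18 had a lower mean in the rich libraries, the median was -0.48, and Sapcd2 and Chst3 opposed. Their list means overlapped, at 8.42, 8.57 and 8.12 in the rich libraries and 8.98, 8.51 and 9.25 in the poor ones. Within males this list mean differed by -0.99, and within females by -0.02.

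All 22 endothelial genes were higher in the mean of the rich libraries, 9 followed and 0 opposed, and their median was 0.86. Their summed values were 10698 to 11612 in the rich set and 5003 to 6635 in the poor set. Ly6c1, a surface antigen of brain endothelium, had 445, 551 and 585 normalized counts against 196, 170 and 171, and the transcription factor genes Erg and Sox17 differed by 1.58 and 1.54. Neuronal genes had a median of 0.87, or 0.46 without female control replicate 2, with 4 of 27 following (Camk2a, Thy1, Snap25 and Stmn2) and Elavl3 opposing. The synaptic vesicle fusion gene Snap25 had 643, 839 and 836 against 377, 218 and 219. Slc17a7, Chat and Isl1, which define classes of neurons, were the only 3 of the 34 listed genes with 0 reads in all 6 controls. The summed neuronal list was 3807 to 4526 against 3470 to 4335, with overlap. Microglial genes had 0 of 26 in either direction and a median of 0.24, and ependymal genes 1 of 16 and 0.59. Mural cell genes had Acta2 and Kcnj8 following and Mcam opposing among 14, with a median of 0.23. The part of these cells in the differences above was not tested.

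Fibroblast and meningeal genes were lower, with a median of -0.89 (-0.39 without female control replicate 3 and -1.38 without male control replicate 3), 5 opposing (Col6a1, Col6a2, Mgp, Col1a1 and Ptgds) and Igfbp2 following among 18. Their summed values overlapped, at 7386 to 21442 in the rich set and 15847 to 29374 in the poor set. Within females the list mean differed by -1.22, and within males by 0.12. Schwann cell genes had a median of -0.76 (-0.43 without male control replicate 3) over 11 members, with Egr2 opposing and Prx following. Neutrophil and granule genes had a median of -0.92 over 15 members and no gene separating the sets: S100a9 had 0, 0 and 1500 normalized counts in the rich libraries and 217, 292 and 22.9 in the poor ones. Their median was 0.03 without female control replicate 1 or 3 and -2.98 without male control replicate 3. Red blood cell genes had 0 of 5 in either direction and a median of 0.01, with the globin genes at 0 in all controls, and 1 lymphocyte gene was described, Ebf1, at 0.09.

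Of 44 cytosolic ribosomal protein genes, 41 had a higher mean in the rich libraries, 4 followed and 0 opposed, and the median was 0.49. Rpl38 had 285, 675 and 697 normalized counts against 192, 124 and 163. Of 40 nuclear genes of oxidative phosphorylation, 37 had a higher mean and the median was 0.45. The 4 that followed included the cytochrome oxidase subunit genes Cox6c (1.53) and Cox8a (1.18). The ribosomal and oxidative phosphorylation lists hold only part of their families, and some members outside the lists also followed. Housekeeping reference genes had 0 of 22 in either direction and a median of 0.18. Proteasome genes had a median of -0.04 with 1 of 27 opposing (Psma5, -1.46), and splicing factors -0.02 with 0 of 28. Immediate early genes had a median of -0.28, with 1 of 23 opposing, heat shock and unfolded protein genes -0.18 with 0 of 20, and cell cycle genes -0.15 with 0 of 24. The cell cycle median was 0.47 without female control replicate 1 and -0.65 without male control replicate 3. Interferon and MHC class I genes had a median of 0.66 (-0.03 over members with a mean of at least 50), with Ifi44, Rtp4 and Ifit3 following and Ifi27 opposing among 22. Of 11 abundant non-coding RNAs, Rpph1 and Rn45s followed, and the median was 1.04, or 0.51 without male control replicate 2. Their list mean differed by 2.09 within males and -0.31 within females, and the list holds Xist, which differs by sex. Rn45s itself differed by 1.04 ± 0.21.

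The cKO libraries were not ranked, and in them the relation could be tested. With the closely matching pair averaged, 5 cKO samples had scores of 12.71 (male replicate 3), 12.56 (male replicate 1), 12.42 (the averaged pair), 11.56 (female replicate 3) and 11.38 (female replicate 1). The slope of each gene on that score was fitted with limma over all genes, with 3 residual degrees of freedom. Of the 13264 genes, 6 rose with the score at an adjusted p under 0.05, or 0.0452%, and 0 fell, or 0%. They included Sparcl1, Slc6a11, Slc4a4, Kif1c and Slc41a1, and 5 of the 6 followed the score in the controls. At an unadjusted p under 0.05, 568 genes had a slope above 0 and 302 below 0.

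Slc6a11 had 6395 normalized counts in male cKO replicate 1, 5952 in male cKO replicate 3, 4671 and 4659 in the closely matching pair, 2105 in female cKO replicate 3 and 1839 in female cKO replicate 1. Its slope was 1.38 log2 units per unit of score (SE 0.20, limma adjusted p = 0.000955). Sparcl1 had 24035, 29007, 22905 and 22937, then 14028 and 9535, in the same order, with a slope of 1.05 (SE 0.15, limma adjusted p = 0.000853). In both genes the 2 samples of low score lay below all others. Slc4a4 had a slope of 1.13 (limma adjusted p = 0.00371). The magnesium transporter gene Slc41a1 had 1.34 (limma adjusted p = 0.0467), and Kif1c, a kinesin gene whose libraries overlapped in the controls, had 1.76 (limma adjusted p = 0.019). Among genes that did not pass, Snap25, Atp1b2 and Slc7a2 had slopes of 1.29, 0.76 and 1.36 (limma adjusted p = 0.0683 each). Mlc1 had 1.23 (limma adjusted p = 0.256) and Gfap 0.59 (limma adjusted p = 0.941).

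These calls were not stable. edgeR on the recovered whole reads called 0 genes (473 slopes above and 367 below 0 had an unadjusted p under 0.05). DESeq2 called 54 higher and 5 lower, including 5 of the 6. Without male cKO replicate 3, and without female cKO replicate 1, limma called 0, and without male cKO replicate 1 it called 63 higher and 6 lower. Without both libraries labelled cKO replicate 3, a comparison of 3 samples chosen after seeing the data, limma called 0 (433 slopes above and 205 below 0 had an unadjusted p under 0.05), with slopes of 1.43 for Slc6a11 and 1.16 for Sparcl1. The 2 samples of low score were both labelled female and the 2 of highest score male, so score and sex label largely moved together. With sex as a term, 21 genes rose and 44 fell, and none of the 6 was among those that rose. Here and below, that term set the averaged pair midway between the sexes, as its labels do. Both of its libraries carried Xist and no Y-linked reads, which goes against that setting. Over 14 alternatives the slope of Slc6a11 was 0.98 to 1.45 and that of Sparcl1 0.86 to 1.36, with adjusted p-values of 0.00037 to 0.963 and 0.000474 to 0.963.

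As a description, 484 of the 649 following genes (74.6%) had a slope above 0 in the cKO libraries, beside 51.2% of all genes, and their median slope was 0.59 beside 0.02. Of the 233 following genes with a mean of at least 100, 216 (92.7%) had a slope above 0, with a median of 0.78, beside 53.1% and 0.04 of all 5260 genes of that level. Opposing genes had a slope below 0 in 249 of 403 cases (61.8%), with a median of -0.28, and in 83 of 104 (79.8%) at a mean of at least 100. The median over all following genes was 1.19 with sex as a term. That over all opposing genes was -0.88 with sex as a term, -0.17 without female cKO replicate 1 and -0.44 without female cKO replicate 3. Without both libraries labelled cKO replicate 3 the medians were 0.67 and -0.42. Level genes had a median of 0.03. Among the lists, astrocyte identity had a median slope of 0.76 with 28 of 31 above 0. Differentiating and mature oligodendrocyte genes had -0.65 with 4 of 32 above 0, and endothelial genes 0.35 with 18 of 22 above 0.

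**Figure D4:**
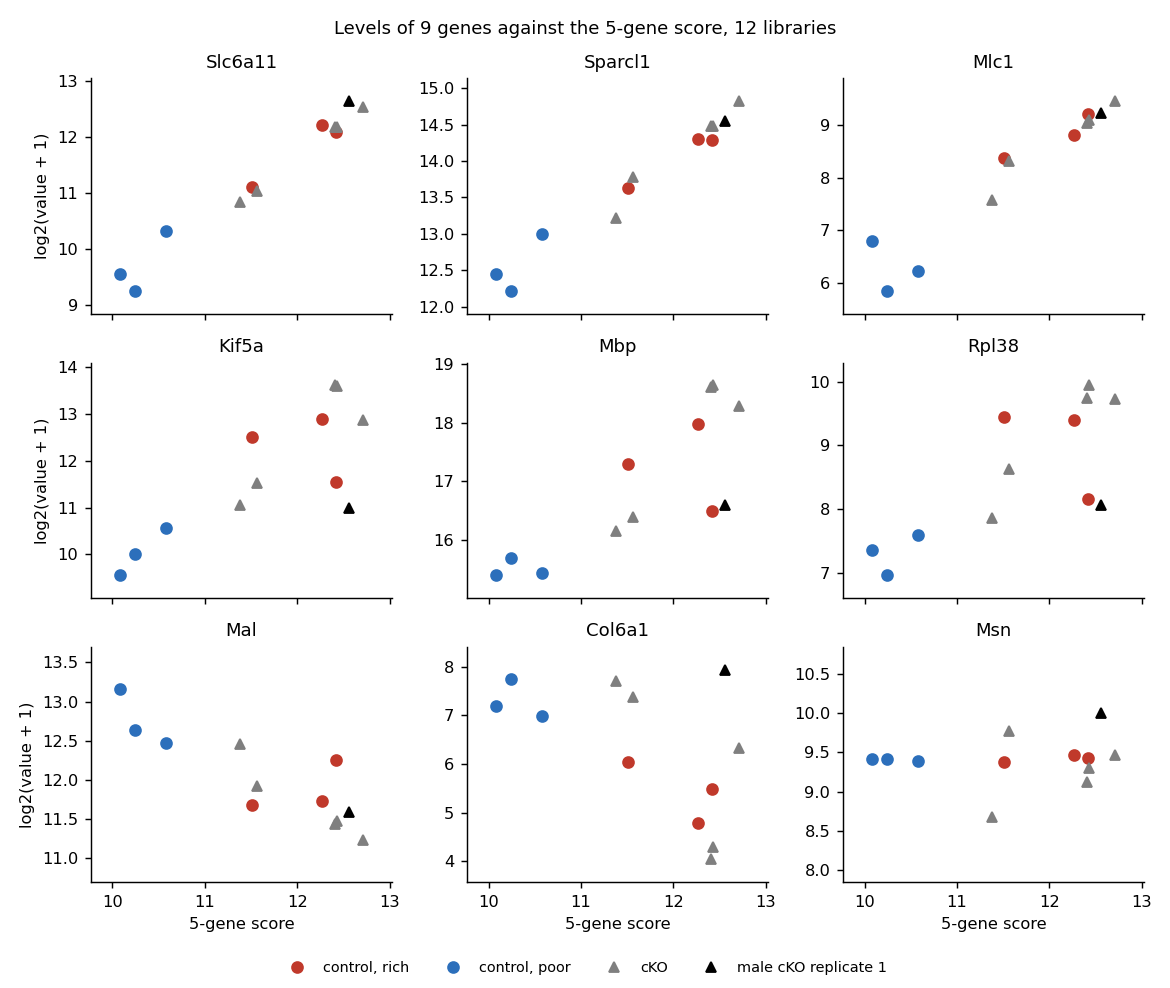
Level of 9 genes (log2(normalized count + 1)) against the 5-gene score in 12 libraries; red and blue points are rich and poor controls, triangles are cKO libraries and the black triangle is male cKO replicate 1. Slc6a11, Sparcl1 and Mlc1 are near their highest in that library, while Kif5a, with 2037 normalized counts there, and Rpl38, with 268, are among the lower libraries.

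In a comparison chosen after the values were seen and without replicates, 3 cKO libraries were set against each other singly. Male cKO replicate 1 and female cKO replicate 1 had near equal Rn45s shares, 25.2% and 25.5%, with scores of 12.56 and 11.38. Male cKO replicates 1 and 3 had near equal scores, 12.56 and 12.71, with Rn45s shares of 25.2% and 40.6%. Both differences use male cKO replicate 1, with opposite sign, so anything particular to that library moves a gene up in 1 and down in the other. The second also uses the library labelled male cKO replicate 3, in which Nkx6-1 reads were found. Mlc1 differed by 1.66 on the log2 scale across the gap in score and by 0.23 across the gap in Rn45s share, Slc6a11 by 1.80 and -0.10, and Elovl2 by 2.32 and -0.27. Kif5a differed by -0.07 and 1.88, Mbp by 0.45 and 1.67, Rpl38 by 0.20 and 1.66, Cox6c by 0.03 and 1.52 and Mir6236 by 0.02 and 2.92. Gfap, at 0.37 and 1.32, and Mt2, at -0.63 and 1.28, had the larger difference across the gap in Rn45s share.

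Of the 233 following genes with a mean of at least 100, 91 were at least 2-fold higher and 5 lower across the gap in score, and 56 were higher and 18 lower across the gap in Rn45s share. Of all 5260 genes with such a mean, 722 were higher and 592 lower across the first, and 623 higher and 680 lower across the second. The lists have no limit on the mean, so all 13264 genes are their background. Of these, 3043 (22.9%) were higher and 2859 lower across the first, and 2879 (21.7%) higher and 3053 lower across the second. In the astrocyte list of 31, 14 were higher and 1 lower, then 3 higher and 0 lower. Endothelial genes had 15 of 22 higher across the gap in score, with a median of 1.42, and 13 lower across the gap in Rn45s share, with a median of -1.08. Differentiating and mature oligodendrocyte genes had 14 of 32 lower across the first, with a median of -0.96. Across the second, 9 of them were higher and 2 lower. All 15 neutrophil genes were higher across the first and lower across the second, with medians of 5.45 and -6.52, so male cKO replicate 1 was the highest of the 3 libraries for them. Because the library is shared, nothing is read from genes that moved across 1 gap and not the other. Across the gap in score the libraries also differed in their sex label. The part of the Rn45s share in the following genes of the controls was not tested.

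**Figure D5:**
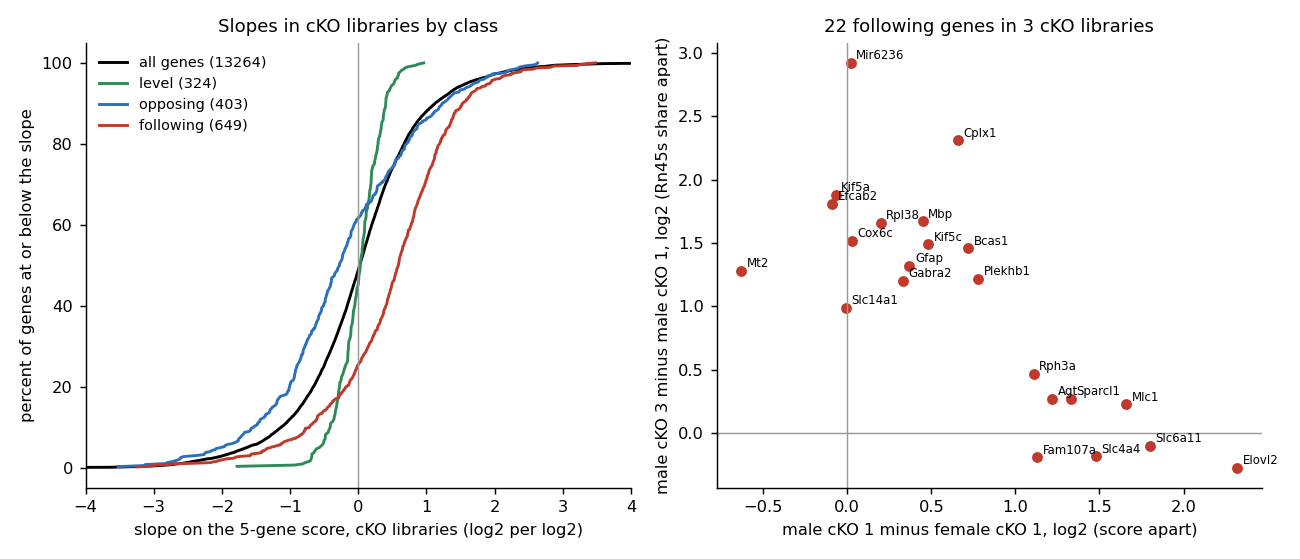
Left, cumulative percent of genes (vertical axis) against the slope on the 5-gene score in the cKO libraries (horizontal axis), for all, following, opposing and level genes; the following genes are shifted to higher slopes, with a median of 0.59. Right, the log2 difference between 2 cKO libraries apart in score (horizontal axis) and between 2 apart in Rn45s share (vertical axis) for 22 following genes, with Mlc1 and Slc6a11 at the lower right and Kif5a and Mir6236 at the upper left. Both differences use male cKO replicate 1, with opposite sign, so nothing is read from this arrangement.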

How the data were processed

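RNA of sorted cells was purified with a micro-scale kit, and 10 ng went into Trio RNA-seq V2 libraries read from paired ends, per the labels' protocols. The submitters' processing notes name build mm10 and, without roles, STAR 2.5.0a and DESeq2 1.20.0 beside read quality tools; annotation, counting tool and use of strand are not given in the sources used here, so overlapping or near-identical genes carry uncertain counts. The deposited table holds 24421 entries with a normalized signal that the authors made from gene counts; 100% of values were whole multiples of 1 step per library within 0.01 reads, so each library's values are its counts over a single factor, and its reads could be recovered. The p-values and counts here cover counting error and spread between samples only.

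Genes had to reach a value of 10 in 3 or more of the 12 libraries, which left 13269. Values were compared as log2(value + 1), which understates changes of low genes. The control sets were selected on these values, so that contrast has no test. The slope in cKO libraries used limma 3.58.1 (trend, robust) with Benjamini-Hochberg adjustment; the pair of cKO replicate 2 libraries (chi-square per degree of freedom 1.06, against at least 15.2 for other pairs) was averaged. Alternatives used edgeR 4.0.16, DESeq2 1.42.0 and R 4.3.3. The script was tested on simulated data. The members and the 36 gene lists were chosen with earlier results of these data known. Named genes were, at a mean of at least 100, the 15 largest differences in each direction and the 10 most level, up to 4 members per list at a mean of at least 50, up to 10 genes per direction of slope by p, and 3 reference genes; symbols of predicted genes and Riken clones were counted only, and other list members are named as parts of counts. Positions are those of GENCODE M21 (GRCm38), matched by symbol for 757 of 763 genes. Slc1a3 was not analysed here, a few genes meeting this rule are left out of the text, and Kif5b is named beyond it.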

Additional observations from a re-analysis of the deposited data

Results flagged for a closer look

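Aldh1l1 in male control replicate 2 stood apart from the other controls, at 5.05 on the log2(value + 1) scale against 7.13 to 8.07. It was the 1 such case among 81 sets of 6 values examined. Chance alone sets apart about 1 in 20 unselected sets. Many of the sets were genes picked for separating the libraries or for a small range, so that rate does not apply to them. In 7 of 35 lists the sets differed in opposite directions within the sexes, in every library, with 3 libraries in each sex. Within each sex 1 library stood against 2, so chance alone would set a similar share of lists in opposite directions. These differences between the sexes were not tested, and nothing is read from their number. The rich minus poor list mean was -4.96 in females and 3.93 in males for neutrophil genes, -1.52 and 1.40 for cell cycle genes, and -0.54 and 0.98 for reactive astrocyte genes. It was -1.05 and 0.39 for immediate early genes, -0.20 and 0.13 for hedgehog genes, -0.14 and 0.27 for synaptogenic factors, and 0.07 and -0.23 for proteasome genes. Male control replicate 3 alone is the male rich library in each of these.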

How the results depend on the processing

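The 3 rich libraries were the same under each of 7 other rankings. Following and opposing genes numbered 455 and 246 with a pseudocount of 10, 340 and 174 at a mean of at least 50, 1041 and 883 at a minimum difference of 0.5, and 135 and 86 at 2. Leaving out 1 control library at a time gave 822 to 1079 following, 604 to 1001 opposing and 488 to 591 level genes; fewer libraries must then separate. Following genes passed 1.5 times the reported count without female control replicate 1 (1079) or male control replicate 1 (1051), and opposing genes were most numerous without male control replicate 3. Thinning every library to 2246412 reads, an alternative chosen after seeing the data, gave 650 following and 412 opposing genes, of which 513 and 309 were among those reported. In the cKO libraries, genes rising and falling with the score numbered 0 and 0 with no filter or in edgeR, 54 and 5 in DESeq2, and 21 and 44 with sex as a term. With a replicate block, 18 rose, including the 6, and 2 fell; replicate numbers are not stated to pair animals, so this was not used as a pairing. Without both libraries labelled cKO replicate 3, also added after seeing the data, 0 rose and 0 fell. Leaving out 1 cKO sample gave 0 to 63 rising and 0 to 6 falling. None of the named following or opposing genes, and none of the 6 slopes called in the cKO libraries, changed direction. Other called genes were not examined for this. For control genes whose sets did not overlap, only other scaling or thinning could reverse the direction, so nothing is read from this for them. The cause of the shifts in the counts was not tested. Depth was lowest in male control replicate 3, where 1 read was worth 2.14 normalized counts and the 3 reads that a count of 0 allows were worth 6.43.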
